A study of Mus musculus with 20 samples.

Results

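The immunoglobulin kappa variable (Igkv) segments were taken as all genes of the deposited count table whose GENCODE symbol on GRCm38 begins with Igkv and whose gene type is IG_V_gene. There were 100 such segments among 28338 genes. Sorted spleen cells of C57BL/6 mice, taken at postnatal day 21, had been sequenced as bulk RNA, with 4 libraries in each of 5 groups. The groups compared here were CD11cint cells (intermediate for CD11c and CD8, positive for CD24) of mice labelled March1-/-, B cells of March1-/- mice and B cells of wild-type (WT) mice. Type 1 conventional dendritic cells (cDC1) of March1-/- and of WT mice served as groups that should not rearrange Igkv. March1 encodes a membrane ubiquitin ligase of antigen-presenting cells. The deposited total was 22491084 to 32751804 counts per library. Levels are given as CPM, the depth-scaled count, at library sizes adjusted by the trimmed mean of M values (TMM).

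Each developing B cell joins 1 Igkv segment to a kappa joining (Igkj) segment by recombination with the RAG enzymes, and the product is spliced to the constant exon Igkc. The germline V segment fixes most of the light chain surface that meets antigen, and the junction with J completes the CDR3 loop, the most variable of its antigen-contacting loops. Segments lying in the orientation of Igkc are joined by deletion of the DNA between them, and segments in the opposite orientation by inversion. A cell can rearrange again and replace its first V segment by one lying farther out, and cells that fail at kappa can go on to lambda. Marginal zone and B-1 B cells, which make early antibody to blood-borne antigen, are known in mice for receptors that recur with little change from the germline.

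The 100 segments belong to 20 families and lie on chromosome 6 from 67555497 to 70704177, upstream of Igkj1 (first base 70722562) and of Igkc (70726435 to 70726966, plus strand). Of these, 38 share the orientation of Igkc and 62 are opposite to it. The exons of a segment add up to 338 to 501 bases (median 362). Reads cannot be assigned to 1 segment everywhere. At least 1 stretch of 50 bases is shared with another Igkv gene or pseudogene by 76 segments, and 15 share over 50% of such stretches. The germline 3′ ends of 12 segments follow, from the GENCODE transcripts on GRCm38, chosen because they are the most used, changed most between groups, or belong to known B-1 receptors. Each line holds the last 60 coding bases, and capitals mark the germline bases after the conserved cysteine codon, with which CDR3 begins.
Igkv1-117 (chr6:68121768-68121827, plus strand): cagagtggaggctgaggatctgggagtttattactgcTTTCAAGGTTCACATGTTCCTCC
Igkv1-110 (chr6:68271208-68271267, plus strand): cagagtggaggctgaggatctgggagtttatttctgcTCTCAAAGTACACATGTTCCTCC
Igkv3-1 (chr6:70704118-70704177, plus strand): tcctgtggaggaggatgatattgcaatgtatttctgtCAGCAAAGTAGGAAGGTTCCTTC
Igkv3-2 (chr6:70699008-70699067, plus strand): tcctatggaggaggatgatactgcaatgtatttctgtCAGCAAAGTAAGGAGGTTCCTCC
Igkv3-4 (chr6:70672318-70672377, plus strand): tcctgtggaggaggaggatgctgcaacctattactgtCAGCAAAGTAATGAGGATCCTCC
Igkv3-7 (chr6:70607977-70608036, plus strand): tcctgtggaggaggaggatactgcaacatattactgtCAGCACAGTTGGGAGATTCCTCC
Igkv5-39 (chr6:69900424-69900483, minus strand): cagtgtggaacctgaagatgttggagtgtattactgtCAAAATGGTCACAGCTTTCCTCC
Igkv4-55 (chr6:69607275-69607334, minus strand): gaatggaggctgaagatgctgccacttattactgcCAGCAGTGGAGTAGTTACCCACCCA
Igkv4-70 (chr6:69267888-69267947, minus strand): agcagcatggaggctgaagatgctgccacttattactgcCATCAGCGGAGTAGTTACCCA
Igkv12-89 (chr6:68834846-68834905, minus strand): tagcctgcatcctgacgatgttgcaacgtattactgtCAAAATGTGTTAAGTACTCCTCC
Igkv14-126 (chr6:67896583-67896642, plus strand): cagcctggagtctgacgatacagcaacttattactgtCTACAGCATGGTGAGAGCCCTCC
Igkv4-91 (chr6:68768555-68768614, minus strand): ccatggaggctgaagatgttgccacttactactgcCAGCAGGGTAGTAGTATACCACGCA

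The capitals differ even where the whole segments are alike. Igkv1-117 and Igkv1-110 are 97.5% identical over the shorter transcript, Igkv3-1 and Igkv3-2 are 92.8% identical, and Igkv4-55 and Igkv4-70 are 93.9% identical. Counts of such relatives can be split between them, so the values of Igkv1-117 (49.9% of its 50-base stretches shared with another Igkv gene or pseudogene), Igkv1-110 (50.9%), Igkv4-55 (53.3%) and Igkv4-70 (63.9%) are uncertain in part. Igkv3-7 and Igkv3-12, given as separate segments below, are 96.7% identical, so their counts can be split too. Of the 28 segments named by rule, 5 share over 50% of such stretches. Igkv5-39, Igkv12-89 and Igkv14-126 share none (0%).

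All 100 segments were present in the table, and 98 passed the filter on low counts. Igkv1-35 and Igkv20-101-2 did not pass, with 6 and 99 counts over the 20 libraries. A count of 3, taken as the floor of detection, is 0.0871 to 0.138 CPM. The targeted gene gave no check of the labels: March1 was at 133.9 to 170.8 CPM in the March1-/- B cells and 137.4 to 158.6 CPM in the WT B cells, at 253.5 to 272.0 CPM in the March1-/- cDC1 and 321.9 to 379.9 CPM in the WT cDC1, and at 119.2 to 134.5 CPM in the CD11cint cells, and no source used here gives the deleted part of the gene. March1-/- therefore means the libraries labelled so. Library 1 of the WT B cells stood apart from its group for several segments, and results that rest on it are given with and without it. The summed level of 7 pan B genes was 8084 to 8991 CPM in the CD11cint cells, 7573 to 8290 CPM in the March1-/- B cells and 7658 to 8009 CPM in the WT B cells, against 138.6 to 186.0 CPM in the March1-/- cDC1 and 115.2 to 129.6 CPM in the WT cDC1. Of the surface markers that name the CD11cint cells, the RNA of Itgax (CD11c) was at 8.32 to 12.7 CPM in the CD11cint cells, 7.05 to 12.7 CPM in the March1-/- B cells and 1104 to 1250 CPM in the March1-/- cDC1. Cd8a was at 4.21 to 6.42 CPM in the CD11cint cells, 1.41 to 2.39 CPM in the March1-/- B cells and 923.4 to 972.5 CPM in the March1-/- cDC1. By RNA the CD11cint cells thus had the pan B level of B cells and overlapped the March1-/- B cells in Itgax (0.04 ± 0.20, edgeR adjusted p = 0.929), with Cd8a above them (1.60 ± 0.17, edgeR adjusted p = 4.41e-07) and both far below cDC1. Whether each library is a separate animal is not stated, and p-values speak only of the variation among libraries, part of which could be technical. In bulk RNA, fewer cells using a segment and less RNA of it per cell cannot be told apart.

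The kappa repertoire was lowest in amount in the CD11cint cells. Igkv transcripts took 0.167%, 0.154%, 0.142% and 0.142% of all counts in the CD11cint libraries, 0.218%, 0.226%, 0.223% and 0.183% in the March1-/- B cells, and 0.195%, 0.270%, 0.267% and 0.242% in the WT B cells. By this percent every CD11cint library lay below every B cell library, while the ranges of both B cell groups overlapped. At TMM-scaled library sizes CD11cint cells overlapped the March1-/- B cells. The summed Igkv level was 1323 to 1711 CPM in the CD11cint cells, 1672 to 2114 CPM in the March1-/- B cells and 1851 to 2550 CPM in the WT B cells. The means were 0.151 ± 0.0122% in the CD11cint cells, 0.212 ± 0.0196% in the March1-/- B cells and 0.243 ± 0.0349% in the WT B cells (SD, n = 4 each), which makes CD11cint cells 0.712 times March1-/- B cells and 0.622 times WT B cells. The cDC1 libraries held 0.00314% to 0.00520% in March1-/- mice and 0.00402% to 0.00640% in WT mice.

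**Figure D1:**
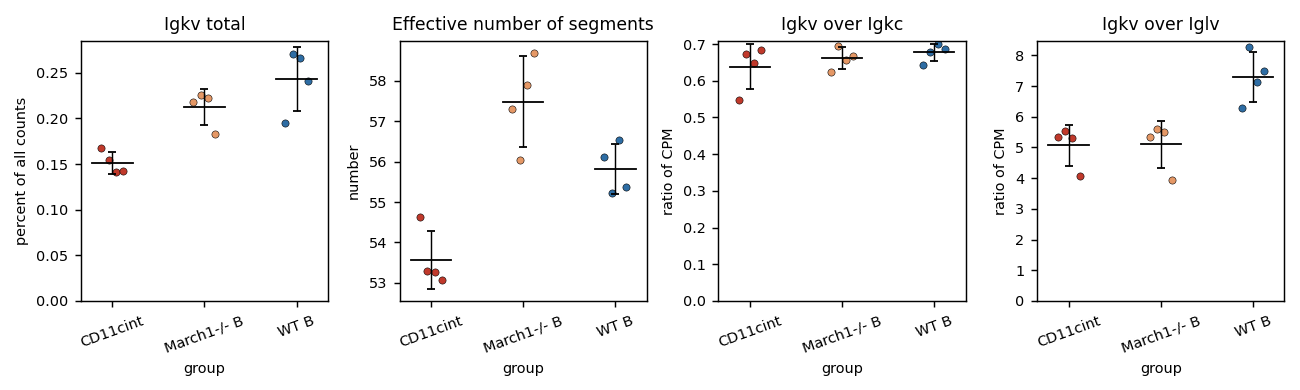
Igkv total as percent of all counts, effective number of Igkv segments, and the ratios of summed Igkv CPM to Igkc and to Iglv CPM, for the 4 libraries (points) of CD11cint cells, March1-/- B cells and WT B cells, with mean (line) and SD (bars); the axis of the effective number does not start at 0. CD11cint cells are lowest in total (0.142% to 0.167%) and in effective number (53.1 to 54.6), and WT B cells are highest in the ratio to Iglv (6.30 to 8.27).

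Igkc, the constant exon that every kappa transcript carries, was also lowest on average in the CD11cint cells. It was at 3119, 2209, 2112 and 1937 CPM in the CD11cint cells, 3311, 3036, 3167 and 2503 CPM in the March1-/- B cells, and 2875, 3750, 3582 and 3290 CPM in the WT B cells. Library 1 of CD11cint cells overlapped with both B cell groups, and Igkc was not called against March1-/- B cells (−0.36 on the log2 scale, edgeR adjusted p = 0.114) but fell against WT B cells (−0.53, edgeR adjusted p = 0.0307). The summed Igkv CPM was 0.549 times Igkc in library 1 of CD11cint cells and 0.648 to 0.683 times in the others, 0.624 to 0.696 times in the March1-/- B cells, and 0.644 to 0.700 times in the WT B cells. Among the joining segments, Igkj2 and Igkj5 fell in the CD11cint cells against March1-/- B cells (−0.39, edgeR adjusted p = 0.0274, and −0.38, edgeR adjusted p = 0.0281), and Igkj1, Igkj3 and Igkj4 did not pass the test.

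The ratio of kappa to lambda was lower in every March1-/- library than in every WT library. The summed Igkv level was 5.34, 5.55, 5.32 and 4.06 times that of the 3 functional lambda V genes (Iglv1, Iglv2 and Iglv3) in the CD11cint cells, 5.34, 5.59, 5.51 and 3.95 times in the March1-/- B cells, and 6.30, 8.27, 7.15 and 7.51 times in the WT B cells. All 8 March1-/- values lay below all 4 WT values, and library 4 was the lowest in both March1-/- populations. Same-numbered libraries of both March1-/- populations deviate together, so these 8 values are not independent. In cDC1 the ratio was 4.83 to 6.10 in March1-/- and 7.87 to 12.1 in WT mice. Whether B cell RNA in the cDC1 libraries gives this ratio was not tested. On the lambda side, Iglv2 rose in the March1-/- B cells over WT B cells by a log2 fold change of 0.53, Iglv3 by 0.34 and the constant gene Iglc2 by 0.47 (edgeR adjusted p = 0.00993, 0.0201 and 0.00846), and Iglv1 (0.22), Iglc1 (0.27) and Iglc3 (0.14) did not pass the test. In CD11cint cells Iglv2, Iglv3 and Iglc2 fell against March1-/- B cells by 0.50, 0.45 and 0.44 (edgeR adjusted p = 0.00372, 0.000387 and 0.00312). Rag1 was at 0 to 0.0354 CPM in the CD11cint cells, 0.184 to 0.491 CPM in the March1-/- B cells and 0.0290 to 0.240 CPM in the WT B cells, near the floor or little above it. Of 11 genes of light chain rearrangement and editing 9 were tested, and in the CD11cint cells Lig4 and Hmgb1, a ligase of end joining and a cofactor of RAG cutting, fell against the March1-/- B cells. Of the 12 genes listed for the light chain loci 5 fell in that contrast, in which 12.2% of all genes were lower.

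A few segments carried much of the repertoire, and Igkv1-117 had the highest mean usage in each B lineage group. Usage is the percent of a library's Igkv counts held by a segment. Averaged over the 12 libraries, the 3 most used segments held 19.4% and the 12 most used 43.0% of Igkv counts, 36 segments were above 1% and 19 below 0.1%. Igkv1-117, which headed the list, held 8.23 ± 0.326% of Igkv counts in the CD11cint cells, 7.32 ± 0.229% in the March1-/- B cells and 7.07 ± 0.479% in the WT B cells (SD, n = 4 each). Igkv1-110 held 7.21 ± 0.465% in the CD11cint cells, 6.45 ± 0.532% in the March1-/- B cells and 6.98 ± 0.654% in the WT B cells. In library 2 of the WT B cells Igkv1-110 held more (7.55%) than Igkv1-117 (7.16%). As these segments share sequence, their order in the WT B cells is uncertain. Igkv1-135 held 5.57 ± 0.417% in the CD11cint cells, 4.94 ± 0.0429% in the March1-/- B cells and 4.38 ± 0.729% in the WT B cells. Igkv10-96 was lower in the CD11cint cells, at 3.79 ± 0.0761%, against 4.50 ± 0.150% in the March1-/- B cells and 4.43 ± 0.491% in the WT B cells. With the library size set to the Igkv total, Igkv10-96 was not called against March1-/- or WT B cells (−0.25 and −0.23, edgeR adjusted p = 0.111 and 0.126). The rest of the 12, from Igkv14-111 (2.78% on average) to Igkv17-121 (2.12%), were Igkv6-15, Igkv19-93, Igkv5-43, Igkv17-127, Igkv9-120 and Igkv6-17. Per exon length, 11 of the 12 stayed among the 12 most used, with Igkv5-39 in place of Igkv6-17.

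**Figure D2:**
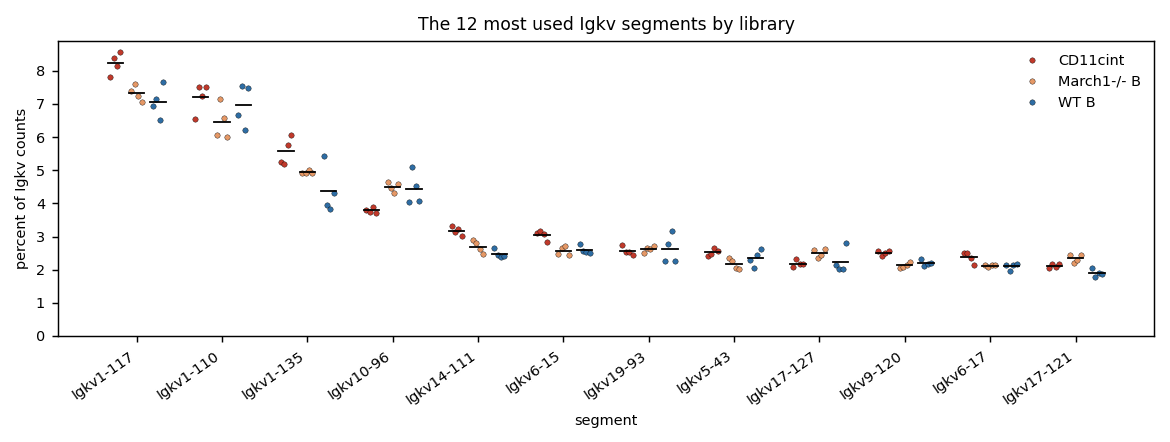
Percent of Igkv counts held by the 12 most used segments (x axis) in each library (points) of CD11cint cells, March1-/- B cells and WT B cells, with the group mean as a line. Igkv1-117 averages 8.23% in CD11cint, 7.32% in March1-/- B and 7.07% in WT B libraries, and has the highest mean in each group.

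Across the 100 segments the usage means of CD11cint cells and March1-/- B cells had a Pearson correlation of 0.988 (Spearman 0.987), those of CD11cint and WT B cells 0.961 (0.969) and those of March1-/- and WT B cells 0.978 (0.981). These describe segments measured in the same libraries, with the same lengths and shared sequence, and are no test. The share of Igkv counts that would have to change segment to make a pair of libraries alike was 3.0 to 5.84 percentage points between CD11cint libraries, 3.46 to 4.77 between March1-/- B cell libraries and 6.72 to 10.03 between WT B cell libraries. Between CD11cint and March1-/- B cell libraries it was 5.80 to 9.51, between March1-/- and WT B cells 7.045 to 9.71, and between CD11cint and WT B cells 8.05 to 13.8. The range within the WT B cells thus overlapped that between March1-/- and WT B cells. The effective number of segments, the exponential of the Shannon entropy of usage, was 54.6, 53.3, 53.3 and 53.1 in the CD11cint cells, 57.3, 56.1, 57.9 and 58.7 in the March1-/- B cells, and 56.1, 55.2, 56.5 and 55.4 in the WT B cells. CD11cint cells were below every B cell library, and the ranges of March1-/- and WT B cells overlapped.

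CD11cint cells were set against B cells of the same genotype to ask how both populations differ in the segments they use. No segment rose and 40 of the 98 tested (40.8%) fell in the CD11cint cells, by 0.42 to 1.35 on the log2 scale, at an edgeR adjusted p under 0.05 over all genes. Among all 18710 genes tested, 12.2% were lower. The fit that paired CD11cint cells and March1-/- B cells by replicate number called 62 segments lower (16.3% of all genes) and none higher, among them all 40. Values of single genes in this contrast are from the fit without pairing throughout. Some segments that did not pass the test there were thus called with pairing. At an unadjusted p under 0.05 no segment was higher and 65 were lower, and DESeq2 and limma-voom called none higher. The median log2 fold change was −0.53 over the segments and 0.01 over all genes, and 95 of 98 segments had a negative value.

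Family 3, whose 9 members lie nearest to the J segments and all in the orientation of Igkc, fell most. Of its 9 members 8 fell, against 32 of the 89 tested segments of other families, with a median log2 fold change of −0.96 against −0.48, and as usage the median of family 3 was −0.50. Igkv3-1, the segment closest to Igkj1, was at 3.24, 2.52, 2.28 and 2.05 CPM in the CD11cint cells and 7.40, 4.82, 8.90 and 4.60 CPM in the March1-/- B cells. The groups did not overlap (−1.35 ± 0.33, edgeR adjusted p = 0.00457). Igkv3-2, its neighbour, was at 16.2, 13.7, 12.2 and 10.4 CPM in the CD11cint cells and 33.9, 26.5, 31.9 and 27.9 CPM in the March1-/- B cells. Again no values overlapped (−1.19 ± 0.23, edgeR adjusted p = 0.000765). Igkv3-7 was at 7.83, 7.30, 6.57 and 4.81 CPM in the CD11cint cells and 14.9, 14.9, 16.5 and 12.3 CPM in the March1-/- B cells, with every CD11cint value the lower (−1.15 ± 0.16, edgeR adjusted p = 1.49e-05). Igkv3-12 and Igkv3-4 fell by 0.88 ± 0.18 and 0.77 ± 0.15. Igkv3-10, with a log2 fold change of −0.55 ± 0.20, did not pass the test in the fit without pairing (edgeR adjusted p = 0.0505).

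As a share of Igkv counts, family 3 held 5.79%, 5.22%, 5.37% and 4.52% in the CD11cint cells, 7.44%, 6.56%, 7.41% and 6.75% in the March1-/- B cells, and 9.33%, 6.46%, 6.38% and 6.61% in the WT B cells. All CD11cint values were below all others. Families 1 and 2 had the opposite order of means: family 1 held 22.3 ± 1.12% in the CD11cint cells, 20.2 ± 0.708% in the March1-/- B cells and 19.8 ± 1.16% in the WT B cells, and family 2 held 3.73 ± 0.278% in the CD11cint cells, 2.91 ± 0.0974% in the March1-/- B cells and 2.62 ± 0.198% in the WT B cells (SD, n = 4 each). In family 1 the lowest CD11cint value (20.84%) was below the highest of the March1-/- B cells (21.04%). In family 2 the CD11cint values were above all others. Family 4, the largest with 26 members, all opposite to Igkc, held 11.9 ± 0.228% in the CD11cint cells, 12.7 ± 0.544% in the March1-/- B cells and 14.1 ± 0.992% in the WT B cells.

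**Figure D3:**
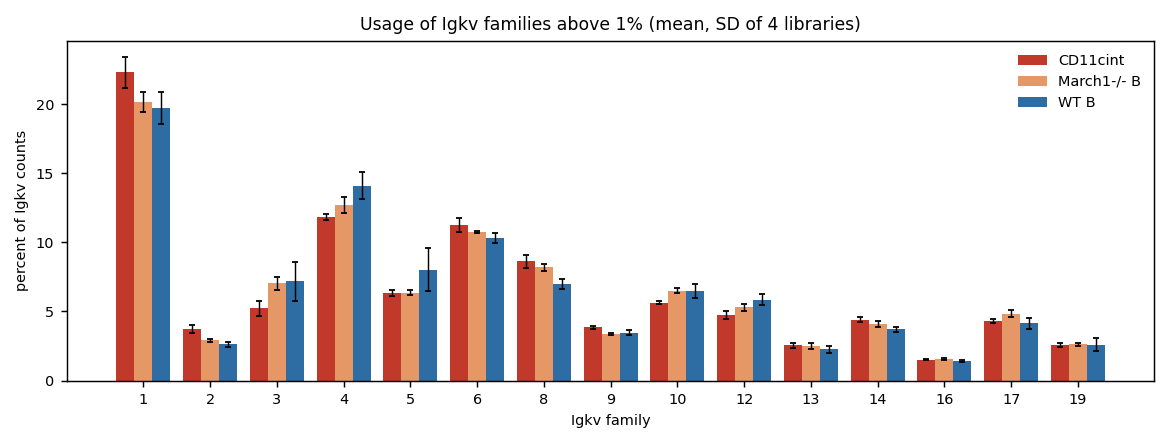
Percent of Igkv counts held by each Igkv family above 1% in the March1-/- B cells (bars, mean with SD of 4 libraries, y axis from 0) in the CD11cint cells, March1-/- B cells and WT B cells. Family 3 is lowest in CD11cint libraries (5.22%, against 7.04% in March1-/- B and 7.19% in WT B) and family 2 is highest there (3.73%, against 2.91% in March1-/- B and 2.62% in WT B). Library 1 raises the WT B mean of family 3, at 9.33% against 6.38% to 6.61% in the others.

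Outside family 3, the largest falls among segments averaging at least 5 CPM were of Igkv8-30, Igkv12-89, Igkv6-14 and Igkv4-50. Igkv8-30 was at 15.2, 13.8, 12.4 and 14.4 CPM in the CD11cint cells and 31.2, 29.1, 26.9 and 24.4 CPM in the March1-/- B cells, with no overlap (−0.999 ± 0.17, edgeR adjusted p = 0.00011). Igkv12-89 was at 4.34, 4.06, 4.25 and 4.17 CPM in the CD11cint cells and 8.06, 7.72, 9.24 and 7.68 CPM in the March1-/- B cells. It fell by 0.96 ± 0.25 (edgeR adjusted p = 0.00733). Igkv6-14 and Igkv4-50 fell by 0.93 ± 0.26 and 0.92 ± 0.18 (edgeR adjusted p = 0.0107 and 0.00066). Of the 12 most used segments only Igkv17-127 (−0.62 ± 0.15, edgeR adjusted p = 0.00492) and Igkv17-121 (−0.58 ± 0.11, edgeR adjusted p = 0.000374) passed the test in the fit without pairing. The other 10 had log2 fold changes from −0.68 (Igkv10-96) to −0.19 (Igkv6-15 and Igkv9-120).

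Segments at both ends of the locus fell, as the plot of fold change by locus order shows. When the 100 segments were divided by locus order into 4 sets of 25, 8 of 24 tested fell in the set farthest from J (median log2 fold change −0.41), 11 of 25 and 8 of 24 in the sets between (−0.58 and −0.56), and 13 of 25 in the set nearest to J (−0.55). The most distal set, Igkv2-137 to Igkv1-99, held 39.2% to 42.5% of Igkv counts in the CD11cint cells, 36.9% to 38.2% in the March1-/- B cells and 33.5% to 37.5% in the WT B cells, so CD11cint cells lay above both B cell groups. By orientation, 18 of 37 tested segments in the direction of Igkc and 22 of 61 opposite to it fell, with medians of −0.50 and −0.54.

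**Figure D4:**
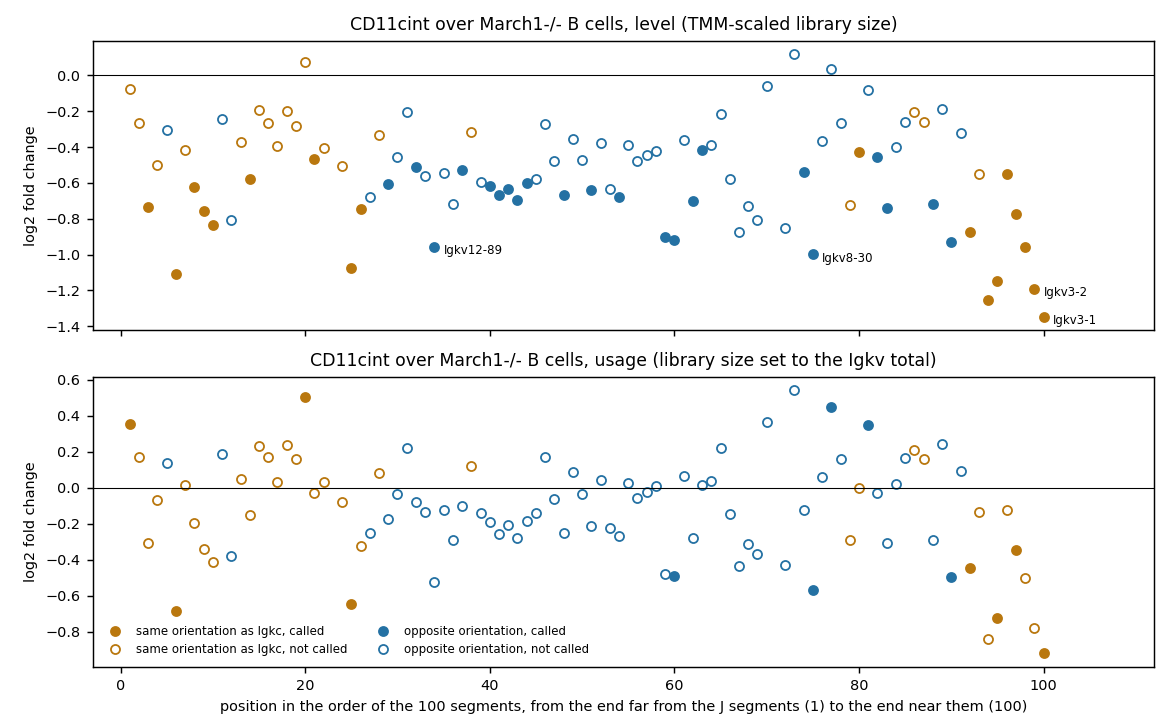
Log2 fold change of CD11cint cells over March1-/- B cells (y axis) for the 98 tested segments in their order from the end far from the J segments to the end near them (x axis), at TMM-scaled library sizes (top) and with the library size set to the Igkv total (bottom); filled points are called at an edgeR adjusted p under 0.05, and colours give the orientation relative to Igkc. Most points lie below 0 in the top panel (95 of 98) and fewer do in the bottom panel, where 9 segments are called lower and 4 higher.

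The lower Igkv total bears on every segment's CPM. With the library size set to the Igkv total, so that a fold change is one of usage, 9 segments fell (3.61% of all genes were called lower) and 4 rose (51.2% higher), and this scaling moves the median of all genes to 0.44. It called 54.8% of all genes, against 24.7% at TMM-scaled library sizes, so the same threshold on the adjusted p was looser for segments. Scaled to the Igkc count 9 fell and 2 rose, where 3.33% of all genes were lower and 32.8% higher. The 9 that lost usage were Igkv3-1 (−0.92), Igkv3-7 (−0.72), Igkv14-130 (−0.68), Igkv1-99 (−0.65), Igkv8-30 (−0.56), Igkv6-14 (−0.49), Igkv4-50 (−0.49), Igkv3-12 (−0.45) and Igkv3-4 (−0.35). The 4 that gained were Igkv2-109 (0.51), Igkv8-28 (0.45), Igkv2-137 (0.35) and Igkv8-24 (0.35). Igkv2-137, the most distal segment, held 1.65% of Igkv counts in the CD11cint cells, 1.30% in the March1-/- B cells and 1.09% in the WT B cells. Igkv14-130, Igkv2-109, Igkv8-28, Igkv2-137 and Igkv8-24 were named after their values were seen. Without library 3 of the March1-/- B cells the TMM-scaled fall of Igkv1-99 missed the threshold (−0.94, edgeR adjusted p = 0.0517, against −1.07 and 0.0132 with all libraries).

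Leaving out library 1 of both groups, as an alternative added after seeing the data, gave 44 segments called lower. Genes of other B cell states moved with this contrast, and their part in the result was not tested. Of 7 plasma cell genes, which mark cells rich in immunoglobulin RNA, 4 fell (Jchain, Prdm1, Sdc1 and Slpi) and 1 rose (Mzb1), with a summed level of 397.4 to 525.7 CPM in the CD11cint cells and 402.2 to 511.1 CPM in the March1-/- B cells. Jchain was at 51.6, 63.5, 44.7 and 42.7 CPM in the CD11cint cells and 160.1, 189.1, 187.9 and 77.9 CPM in the March1-/- B cells. Of the B-1 genes 4 of 5 fell (summed level 28.0 to 45.3 against 94.0 to 145.7 CPM), as did all 4 tested of 8 immature B cell genes (31.5 to 43.6 against 123.0 to 205.0 CPM), and all 9 marginal zone genes rose (4480 to 5292 against 1817 to 2745 CPM). Of 5 follicular B cell genes 4 fell and 1 rose, and of 5 germinal centre genes 4 fell (39.9 to 53.5 against 77.7 to 112.8 CPM). Tnfrsf17, a defining plasma cell gene, was at 0.0429 to 0.212 CPM in the CD11cint cells, near the floor. Of 16 genes of factors known to act on the kappa locus 1 rose (Spi1) and 4 fell (Tcf3, Tcf12, Ikzf3 and Nfkb1), at a median log2 fold change of −0.06. Among markers of other cells, 6 of 7 T cell genes, 3 of 4 NK cell genes and 3 of 5 macrophage genes fell. The remaining NK cell gene (Prf1, by 0.96) and 5 of 8 cDC1 genes rose. Each of these lists had a summed level of at most 84.5 CPM in the CD11cint cells. Erythroid genes summed to 897.5 to 2599 CPM in the CD11cint cells and 920.2 to 2746 CPM in the March1-/- B cells.

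March1-/- B cells were set against WT B cells to ask what the genotype does to the repertoire. No segment rose and 5 of 98 (5.10%) fell, where 2.44% of all genes were lower, 2.31% higher and 4.76% called in either direction, and 2 were higher and 15 lower at an unadjusted p under 0.05 (DESeq2 and limma-voom called none higher). The median log2 fold change was −0.12 over the segments and −0.01 over all genes. The 5 were Igkv4-70, Igkv4-55, Igkv5-39, Igkv12-89 and Igkv3-4.

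Igkv4-55 was at 20.25, 21.1, 19.0 and 18.6 CPM in the March1-/- B cells and 27.7, 72.2, 59.2 and 41.3 CPM in the WT B cells. No value overlapped (−1.34 ± 0.21, edgeR adjusted p = 0.000711). Fitted on these 2 groups alone, Igkv4-55 and Igkv4-70 kept their fold changes (−1.34 and −1.49) and missed the threshold (edgeR adjusted p = 0.0571 and 0.078). Igkv4-70, of the same family, was at 10.8, 11.4, 9.16 and 8.04 CPM in the March1-/- B cells and 11.9, 36.6, 34.5 and 28.2 CPM in the WT B cells, where library 1 lay just above the March1-/- range (−1.49 ± 0.29, edgeR adjusted p = 0.00464). Igkv5-39 was at 28.5, 38.1, 40.4 and 25.6 CPM in the March1-/- B cells and 30.98, 72.5, 124.2 and 76.2 CPM in the WT B cells. Library 1 of WT B cells lay within the March1-/- range and library 3 was the highest of all (−1.20 ± 0.30, edgeR adjusted p = 0.0308). Igkv5-39 held 1.23 ± 0.117% of Igkv counts in the CD11cint cells and 1.66 ± 0.253% in the March1-/- B cells, against 3.21 ± 1.36% in the WT B cells (SD, n = 4 each).

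Igkv12-89 was at 8.06, 7.72, 9.24 and 7.68 CPM in the March1-/- B cells, against 23.6, 11.6, 14.3 and 16.8 CPM in the WT B cells, where library 1 was the highest, and no value overlapped (−1.02 ± 0.23, edgeR adjusted p = 0.0118). Igkv3-4 was at 24.1, 23.8, 24.7 and 17.6 CPM in the March1-/- B cells and 29.9, 38.4, 33.3 and 33.9 CPM in the WT B cells. It fell by 0.59 ± 0.14 without overlap (edgeR adjusted p = 0.0168). With the library size set to the Igkv total, which moves the median of all genes to 0.19, Igkv4-70, Igkv4-55 and Igkv5-39 fell (−1.24, −1.09 and −0.95, where 0.412% of all genes were lower) and Igkv3-7 rose (0.61, edgeR adjusted p = 0.0279, where 1.78% were higher and 2.19% called in all). Scaled to the Igkc count 2 fell, where 0.28% of all genes were lower and 0.595% higher.

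Calls in this contrast rested on single libraries in part. Without library 3 of WT B cells the fall of Igkv5-39 was 0.85 (edgeR adjusted p = 0.103), without library 1 of WT B cells that of Igkv12-89 was 0.80 (edgeR adjusted p = 0.0722), and without library 2 of WT B cells that of Igkv3-4 was 0.52 (edgeR adjusted p = 0.0672). Igkv5-39 also missed the threshold without library 2 or 4 of WT B cells (edgeR adjusted p = 0.056 and 0.0706) or library 1, 3 or 4 of March1-/- B cells (0.102, 0.0525 and 0.0837), and Igkv3-4 without library 4 of March1-/- B cells (0.0575). The count of segments lower was 3 without library 2 of WT B cells, 3 without library 4 of March1-/- B cells and 7 without library 1 of WT B cells, the library that stood apart.

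Genes of other B cell states moved with the genotype, and their part in the result was not tested. Of 9 marginal zone genes 8 fell in March1-/- against WT B cells, by 0.41 (Cd1d1) to 1.08 (Asb2), and their summed level was 1817 to 2745 CPM in the March1-/- B cells and 2848 to 3633 CPM in the WT B cells. All 4 tested immature B cell genes rose, by 0.85 (Vpreb3) to 1.22 (Cd93), with a summed level of 123.0 to 205.0 CPM in the March1-/- B cells and 72.2 to 87.5 CPM in the WT B cells. Of 5 follicular genes 3 rose (Fcer2a, Ighd and Cd55; summed level 2257 to 2759 CPM in the March1-/- B cells and 1638 to 2093 CPM in the WT B cells), and of 5 B-1 genes Itgam fell by 0.58. The 7 plasma cell genes did not pass the test, and the lowest edgeR adjusted p among them was 0.0797 (Xbp1, −0.30). Jchain was at 160.1, 189.1, 187.9 and 77.9 CPM in the March1-/- B cells and 141.4, 350.7, 328.7 and 319.7 CPM in the WT B cells, with library 1 of WT B cells the lowest of its group as for Igkv5-39, Igkv4-55 and Igkv4-70, but Jchain was not called (−0.89, edgeR adjusted p = 0.124). The summed level of the 7 plasma cell genes was 402.2 to 511.1 CPM in the March1-/- B cells and 502.4 to 722.3 CPM in the WT B cells. Of 5 germinal centre genes 2 fell (Mybl1 by 1.10 and Fas by 0.87) and Rgs13 rose by 0.58 (edgeR adjusted p = 0.00357, 0.000763 and 0.0251), with sums of 77.7 to 112.8 CPM in the March1-/- B cells and 91.0 to 109.0 CPM in the WT B cells.

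**Figure D5:**
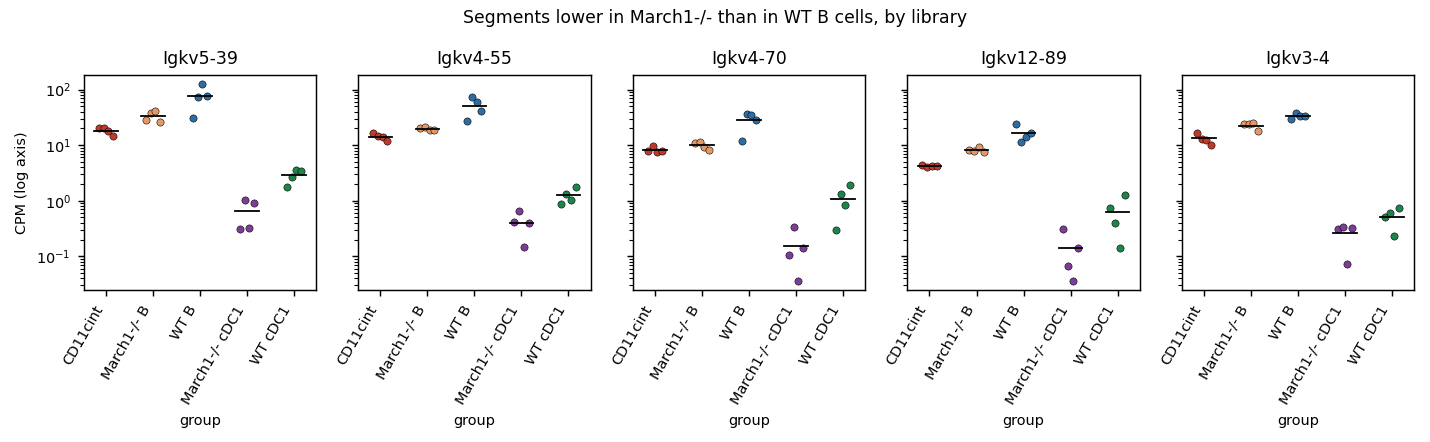
CPM (log axis) of the 5 segments called lower in March1-/- than in the WT B cells, in each library (points) of CD11cint cells, March1-/- B cells, WT B cells, March1-/- cDC1 and WT cDC1, with the group mean as a line. In cDC1 the March1-/- mean is below the WT mean for each of the 5, from 0.641 against 2.85 CPM for Igkv5-39 to 0.260 against 0.518 CPM for Igkv3-4. Of all 98 tested segments, 58 have a negative and 38 a positive fold change in cDC1.

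In cDC1 the same segments were counted at a small fraction of the B cell level. This comparison was added after seeing the data. Igkv5-39 was at 0.312, 1.03, 0.329 and 0.892 CPM in the March1-/- cDC1 and 1.73, 2.65, 3.60 and 3.42 CPM in the WT cDC1. The groups did not overlap, but the segment was not called (−2.12 ± 0.59, edgeR adjusted p = 0.072). Igkv4-55 was at 0.146 to 0.666 CPM in the March1-/- cDC1 and 0.884 to 1.79 CPM in the WT cDC1 (−1.60 ± 0.49, edgeR adjusted p = 0.107). Of 98 segments 1 rose and 3 fell in the March1-/- cDC1, where 1.53% of all genes were higher, 1.34% lower and 2.86% called in either direction. The segments leaned to lower values as a set, with 58 negative and 38 positive log2 fold changes. Their median was −0.28, against 0.01 over all genes. The genotype effect differed between cDC1 and B cells for 1 of 98 segments (Igkv9-124, named after its values were seen), at a higher value in cDC1, where 1.49% of all genes were higher and 2.36% were called for that difference in either direction.

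Those that fell were Igkv4-57-1 (−2.12 ± 0.50, edgeR adjusted p = 0.0177), Igkv12-89 (−2.17 ± 0.59, edgeR adjusted p = 0.0491) and Igkv4-70 (−2.74 ± 0.73, edgeR adjusted p = 0.0497); the first was named after its values were seen. Igkv12-89 missed the threshold when any of 15 single libraries was left out, and Igkv4-70 when any of 16 was, with the highest edgeR adjusted p (0.261 and 0.204) without library 4 of the WT cDC1. Igkv14-126 rose, at 0.588, 0.699, 0.695 and 1.07 CPM in the March1-/- cDC1 and 0.295, 0.277, 0.323 and 0.0407 CPM in the WT cDC1 (1.69 ± 0.36, edgeR adjusted p = 0.00734). Each of these 4 called segments had at least 1 cDC1 library under the floor, while Igkv5-39 was above it in every one. Pan B genes summed to 138.6 to 186.0 CPM in the March1-/- cDC1, against 115.2 to 129.6 CPM in the WT cDC1. The summed Igkv level was 34.1 to 56.3 CPM in March1-/- and 44.5 to 69.2 CPM in the WT cDC1. Whether B cell RNA in the cDC1 libraries gives these values was not tested.

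CD11cint cells against WT B cells, which differ in genotype as well as population, gave more calls. No segment rose and 55 of 98 (56.1%) fell, by 0.40 to 2.07 on the log2 scale, where 8.04% of all genes were lower and 5.99% higher; at an unadjusted p under 0.05 none was higher and 81 were lower, and DESeq2 and limma-voom called none higher. The median was −0.61 over the segments and 0.01 over all genes. This comparison shares its CD11cint libraries with the first, and 33 segments were called lower in both, 82.5% of the 40 and 60% of the 55. Igkv5-39 had the lowest value (−2.07 ± 0.32, edgeR adjusted p = 0.000257), at 20.03, 19.9, 18.04 and 14.5 CPM in the CD11cint cells, below the 30.98 CPM of the lowest WT library. Igkv12-89 fell by 1.98 ± 0.25, Igkv4-55 by 1.82 ± 0.22, Igkv4-70 by 1.76 ± 0.30, Igkv3-2 by 1.64 ± 0.23 and Igkv1-99 by 1.62 ± 0.30 (edgeR adjusted p = 1.12e-05, 1.15e-05, 0.000472, 6.41e-05 and 0.000741). The count was 61 without library 1 of the WT B cells. Of the 12 most used segments 10 fell, by 0.40 (Igkv6-15) to 0.88 (Igkv10-96), although 7 of the 10 had positive values when the library size was set to the Igkv total, from 0.05 (Igkv1-110) to 0.23 (Igkv6-15). Of these 10, Igkv1-110, Igkv10-96, Igkv19-93, Igkv6-17 and Igkv9-120 missed the threshold without library 2 of the WT B cells (edgeR adjusted p = 0.0764, 0.0901, 0.0764, 0.118 and 0.0551), and Igkv5-43, with 4 of those, without library 3 (0.0635) and Igkv5-43 also without library 4 (0.0509). Igkv10-96 also did so without library 2, 3 or 4 of the CD11cint cells (0.0532, 0.0569 and 0.0524), Igkv19-93 without library 3 or 4 of these (0.0567 and 0.0531), and Igkv6-17, at 0.0488 with all libraries, when any of 13 single libraries was left out. Igkv1-135 (−0.27) and Igkv14-111 (−0.27) did not pass the test.

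Genes of other B cell states moved with this contrast too, and their part in the result was not tested. All 9 marginal zone genes rose, with a summed level of 4480 to 5292 CPM in the CD11cint cells and 2848 to 3633 CPM in the WT B cells. All 5 B-1 genes fell (28.0 to 45.3 CPM in the CD11cint cells, 91.2 to 106.6 CPM in the WT B cells), as did all 5 germinal centre genes (39.9 to 53.5 CPM in the CD11cint cells, 91.0 to 109.0 CPM in the WT B cells) and all 4 tested immature B cell genes (31.5 to 43.6 CPM in the CD11cint cells, 72.2 to 87.5 CPM in the WT B cells). Of 7 plasma cell genes Jchain, Sdc1, Tnfrsf17 and Slpi fell, Jchain by 2.49 ± 0.32 (edgeR adjusted p = 4.8e-05), and Mzb1 rose. Of 5 follicular genes 4 fell.

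With the library size set to the Igkv total, which moves the median of all genes to 0.64, 9 segments rose and 11 fell, against 73.7% and 1.97% of all genes. This scaling called 75.7% of all genes, against 14.0% at TMM-scaled library sizes, so the same threshold on the adjusted p was looser for segments. Scaled to the Igkc count 4 rose and 12 fell, against 63.0% and 2.11% of all genes. Igkv1-135 and Igkv14-111 were among those that gained usage over WT B cells (0.35 and 0.36, edgeR adjusted p = 0.0287 and 0.0144), and Igkv12-89 (−1.40), Igkv5-39 (−1.38), Igkv4-55 (−1.14), Igkv3-2 (−1.09) and Igkv4-70 (−1.07) lost usage. For Igkv1-135 the usage in library 1 of the WT B cells (5.43%) lay within the CD11cint range of 5.20% to 6.06%. Igkv3-2 has a WT mean that 1 library carries, at 68.8 CPM in library 1 and 30.1 to 33.7 CPM in the others. Without that library its fall was 1.26 (edgeR adjusted p = 6.89e-06).

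Of the light chain segments of known B-1 receptors, Igkv14-126 and Igkv4-91 fell in CPM in the CD11cint cells against March1-/- B cells, a contrast in which 95 of 98 segments had negative values. With the library size set to the Igkv total neither was called (−0.34 and −0.08, edgeR adjusted p = 0.0705 and 0.64). In mice Igkv14-126 pairs with Ighv11-2, and Igkv4-91 with Ighv12-3, in B-1 cells that bind phosphatidylcholine, and Igkv7-33 pairs with Ighv7-1 in antibodies to phosphorylcholine. Igkv14-126 was at 7.94, 6.40, 5.11 and 5.23 CPM in the CD11cint cells, 10.9, 12.2, 10.1 and 8.64 CPM in the March1-/- B cells and 6.74, 8.66, 9.25 and 8.87 CPM in the WT B cells. It fell in the CD11cint cells against March1-/- B cells (−0.76 ± 0.17, edgeR adjusted p = 0.00209) and was not called against WT B cells (−0.44 ± 0.17, edgeR adjusted p = 0.0936). Ighv11-2 fell by 0.66 against March1-/- B cells (edgeR adjusted p = 0.03145).

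Igkv4-91 was at 12.6, 11.1, 9.83 and 10.6 CPM in the CD11cint cells, 16.0, 18.2, 15.6 and 13.3 CPM in the March1-/- B cells and 9.29, 15.2, 16.4 and 15.5 CPM in the WT B cells. It fell by 0.51 ± 0.17 in the CD11cint cells against March1-/- B cells (edgeR adjusted p = 0.0287), a call that was lost without library 2 of March1-/- B cells (0.44, edgeR adjusted p = 0.0946) and without library 1 or 3 of that group (0.054 and 0.0572) or library 2, 3 or 4 of the CD11cint cells (0.0545, 0.0797 and 0.0586). Ighv12-3 fell by 1.24 in the same contrast (edgeR adjusted p = 3.4e-05) and rose by 0.69 in March1-/- over WT B cells (edgeR adjusted p = 0.0237). Igkv7-33 was at 0.0376 to 0.495 CPM in the CD11cint cells, 0.131 to 0.519 CPM in the March1-/- B cells and 0.215 to 0.541 CPM in the WT B cells, near the floor in every group.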

How the data were processed

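Bulk RNA-seq of 20 sorted spleen libraries was used, with sort purity of 95% to 99% per the labels. The values are whole-number counts per gene, deposited unnormalized by the authors. The submitters' processing notes list STAR, Subread, CASAVA and FastQC, besides limma and edgeR, without versions, and the builds GRCm38 and mm10. Strand and multi-mapping settings are not given there, which matters for segments that share sequence. Counts of 2 lanes per library were summed, and lane differences did not exceed sampling noise (chi-square per gene 0.991 to 1.032). Ensembl IDs were matched to GENCODE mouse release M21 for 28290 genes, and 48 unmatched genes hold 0.0414% of counts.

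edgeR 4.0.16 in R 4.3.3 was fitted to all 20 libraries by group with TMM factors, its expression filter and the robust quasi-likelihood test, and p was adjusted by Benjamini-Hochberg over 18710 genes with a threshold of 0.05. The common biological coefficient of variation was 10.91%, and its median over the segments was 16.05%. The fit was tested on simulated data before use, for CD11cint cells against March1-/- B cells. It recovered 98% of genes set to change by 1 on the log2 scale and 64% of those set to change by 0.5. Of 170 calls 8 were of unchanged genes. Segments not called can thus include changes of about 0.5. Alternatives were RLE factors, no filter, DESeq2 1.42.0, limma-voom (limma 3.58.1), subsets of the groups, a replicate block, scaling to Igkv or Igkc counts, and leaving out libraries. Same-numbered CD11cint and March1-/- B cell libraries deviated together from their group means (correlation 0.213 to 0.503, against −0.405 to 0.102 for other numbers), so the numbers pair these groups. They did not pair with WT B cells (−0.042 to 0.186).

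Segments named are the 12 most used, the called segments of largest change averaging 5 CPM or more in the group where they are higher (up to 8 per direction for CD11cint against March1-/- B cells, 6 for the others), and the light chains of the receptor list. Members and lists were chosen with earlier results of these data known, and 1 gene each of the germinal centre and follicular lists is not reported here. Sequence comparisons used Biopython 1.88, with identity taken over the shorter transcript. Figures used matplotlib 3.10.9.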

Additional observations from a re-analysis of the deposited data

Results flagged for a closer look

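Of 108 groups of 4 libraries checked for a value far from the other 3, 10 were marked, and chance marks about 1 in 20 groups. Library 4 of March1-/- B cells was low for Igkv1-135 (82.4 CPM, against 101.8 to 104.2), Igkv6-17 (35.6 CPM, against 43.9 to 44.4), Igkv3-4 (17.6 CPM, against 23.8 to 24.7) and the ratio of Igkv to Iglv (3.95, against 5.34 to 5.59). Library 4 of CD11cint cells was low for the same ratio (4.06, against 5.32 to 5.55). Library 1 of WT B cells was high for Igkv3-2 (68.8 CPM, against 30.1 to 33.7) and for the share of family 3 (9.33% of Igkv counts, against 6.38% to 6.61%), and low for Igkv4-91 (9.29 CPM, against 15.2 to 16.4). Library 2 of CD11cint cells was high for Igkv4-70 (9.52 CPM, against 7.64 to 7.86), and library 1 of that group for the effective number of segments (54.6, against 53.1 to 53.3).

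The genotype effect on Igkv9-124 differed between cDC1 and B cells by an interaction term of 1.35 ± 0.33 (edgeR adjusted p = 0.0283), in a comparison added after seeing the data. It was at 0.794 ± 0.359 CPM in March1-/- cDC1 and 0.386 ± 0.0489 CPM in WT cDC1, and at 18.2 ± 2.20 CPM in March1-/- B cells and 22.5 ± 2.11 CPM in WT B cells (SD, n = 4 each). It was the 1 segment called for that term, where 2.36% of all genes were.

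The 38 Igkv pseudogenes of the table are no members. They were used in the effective number given with pseudogenes and among the sequences searched for shared stretches. Their summed level averaged 18.8 CPM over the 12 B cell and CD11cint libraries, against 0.0922 to 0.466 CPM in the cDC1 libraries.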

How the results depend on the processing

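With the library size set to the Igkv total, segments called lower and higher were 9 and 4 for CD11cint cells against March1-/- B cells, 3 and 1 for March1-/- against WT B cells, and 11 and 9 for CD11cint against WT B cells. Of all genes, 3.61% and 51.2%, 0.412% and 1.78%, and 1.97% and 73.7% were called lower and higher. Scaled to the Igkc count the segments called were 9 and 2, 2 and 0, and 12 and 4 in these contrasts. The shares of all genes were then 3.33% and 32.8%, 0.28% and 0.595%, and 2.11% and 63.0%. These scalings move the median of all genes, by 0.16 to 0.64. In both contrasts of CD11cint cells they also call more of all genes than TMM scaling does, which loosens the threshold on the adjusted p. Of the most used segments in CD11cint against WT B cells, values turned positive when scaled to Igkc and to the Igkv total for Igkv1-117 (0.14 and 0.22), Igkv6-15 (0.14 and 0.23), Igkv5-43 (0.0192 and 0.11), Igkv9-120 (0.10 and 0.19), Igkv6-17 (0.0817 and 0.17) and Igkv17-121 (0.0751 and 0.16), and for Igkv1-110 with the Igkv total (0.0461).

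Pairing by a replicate block within genotype gave 62 lower calls for CD11cint against March1-/- B cells, where the fit without it gave 40. A replicate block over all numbers gave 50, 5 and 61 lower calls in the 3 contrasts. March1-/- against WT B cells fitted alone gave 3, without Igkv4-55 or Igkv4-70 being called (−1.34 and −1.49, as with all groups, at edgeR adjusted p = 0.0571 and 0.078). Leaving out 1 library at a time gave 30 to 51 lower calls for CD11cint against March1-/- B cells, 3 to 7 for March1-/- against WT B cells and 41 to 64 for CD11cint against WT B cells. Over the same omissions the Igkv total was 0.146% to 0.155% in CD11cint cells, 0.208% to 0.222% in March1-/- B cells and, for the WT B cells, 0.234% to 0.260%, and the effective number 53.2 to 53.7 in CD11cint cells, 57.1 to 58.0 in the March1-/- B cells and 55.6 to 56.0 in the WT B cells. With pseudogenes added it was 56.1 in CD11cint cells, 59.8 in the March1-/- B cells and 57.9 in the WT B cells, and as the inverse Simpson index 35.6 in CD11cint cells, 39.9 in the March1-/- B cells and 38.6 in the WT B cells. The cause of these changes was not tested.

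Segments near the floor of 0.0871 to 0.138 CPM, and all segments in cDC1, are limited by depth. Assignment of reads between segments that share sequence could not be checked from counts.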
